A study of Mus musculus with 74 samples.

Results

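The gasdermins, a family of proteins that open pores in cell membranes, were followed through the developing stomach and intestine of the mouse and through the loss of the intestinal transcription factor Cdx2. Rows named Gsdma, Gsdmc, Gsdmc2, Gsdmc3, Gsdmc4 and Gsdmd made up 6 of the 24015 gene rows of the count table, and they were read in all 31 RNA-seq libraries, which fall into 15 groups. These 6 genes were chosen by family name with their counts in these same libraries already known, so their levels and folds are given as a description without p-values. All 6 passed the filter on low counts in both fits. Near-identical rows of the gasdermin C cluster can take each other's reads, so Gsdmc, Gsdmc2, Gsdmc3 and Gsdmc4 are each uncertain and their summed counts are given beside them.

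A gasdermin is made as a silent protein whose C-terminal part holds its N-terminal part in check. When a protease cuts between them, the N-terminal part assembles into a pore, through which the cytokines Il1b and Il18 leave the cell and which can end in lytic death, called pyroptosis. Gsdmd is the substrate of Casp1 and Casp4, the caspases that inflammasomes and cytosolic lipopolysaccharide switch on. The gasdermin C copies are known from differentiated enterocytes of the mouse intestine, where the type 2 cytokines that act through Il4ra and Stat6 raise them. Gsdma is known from skin and the upper digestive tract.

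Wild-type embryos were of the CD1 strain. Epithelium came from forestomach (FS), hindstomach (HS) and small intestine (SI) at E12, E14 and E16, where the SI cells of E12 and E14 are labelled midgut, and from SI at E18. Cells up to E16 were dissociated with trypsin and sorted on Epcam, whereas villi at E18 and in adults were released with EDTA. Every knockout carried floxed Cdx2 on a B6;129 mixed background, so in embryos strain and genotype cannot be told apart. Cdx2f/f; Shh-Cre embryos, in which Shh drives Cre in early endoderm and no drug is needed, were taken at E16 and are labelled deleted at E10, with 3 libraries. Cdx2f/f; Villin-Cre embryos, whose Cre is active in gut epithelium, received 5 mg tamoxifen by gavage and are labelled deleted at E13 (taken at E16) or at E15 (taken at E18). Adult ileum villus came from Cdx2f/f; Villin-Cre mice given 1 mg tamoxifen on 5 days and killed 3 days after the last injection, and from Cdx2f/f mice given sunflower oil. No drug is recorded for wild-type embryos, so with the labels at E13, at E15 and in the adult tamoxifen and deletion label cannot be told apart. All other groups held 2 libraries, which nothing in the labels ties to separate animals, so the spread between them may be technical.

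The gasdermin C copies lie side by side. In the RefSeq table of the assembly GRCm38.p6 the protein-coding order is Gsdmc, Gsdmc2, Gsdmc3 and Gsdmc4, with the transcribed pseudogenes Gsdmcl1 and Gsdmcl2 on either side of Gsdmc3, then the pseudogene Gsdmcl-ps and the coding gene Cyrib. Gsdma follows Gsdma3 and Gsdma2, and Gsdmd is followed by Mroh6 and then by Naprt, which the count table lists as Naprt1. The promoter table matched 1 of the 6 members. Because Gsdmc2, Gsdmc3 and Gsdmc4 moved together over the groups, the 250 bases before the start of Gsdmc3 (RefSeq, GRCm38.p6, chr15:63878559-63878808, minus strand) are shown 5′ to 3′, with capitals at the motif matches.
Gsdmc3: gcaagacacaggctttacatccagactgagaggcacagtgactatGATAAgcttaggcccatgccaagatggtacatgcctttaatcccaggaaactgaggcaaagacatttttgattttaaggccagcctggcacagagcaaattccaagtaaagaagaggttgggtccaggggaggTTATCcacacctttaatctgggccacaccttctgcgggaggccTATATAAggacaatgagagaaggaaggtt
The capitals at 29 to 23 bases before the start spell TATATAA, the letters of a TATA box, which 3.0% of the 32851 promoter windows of this length hold on either strand. GATAA, bound by GATA factors, matched 205 to 201 bases before the start and, on the opposite strand, 72 to 68 bases before it, and 22.6% of the windows hold it. TTTATGG, a CDX-type motif held by 2.4% of the windows, and CAAAGT, a nuclear receptor motif held by 12.6%, gave no match on either strand, which says only that these letters are not in this window. The matches do not overlap.

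Embryonic libraries held 5970227 to 62463167 counted reads (median 21978170) and adult libraries 14788004 to 23164522. Levels are given as CPM, each gene's count relative to its library's total, with totals scaled by trimmed means (TMM) within the embryonic and the adult libraries apart, which used different library kits, so no fold is given across them. Cdx2 stood at 207 ± 15.2 CPM in E16 SI (SD, n = 2) and at 19.8 ± 6.84 in the libraries labelled deleted at E10 (n = 3). It was not lower in the libraries labelled deleted at E13 (215 ± 3.46), at E15 (380 ± 11.96, against 203 ± 4.63 in E18 SI) or in the adult (467 ± 7.26 against 245 ± 4.41). Those labels were therefore not borne out by the counts of the targeted gene, although gene-level counts cannot show whether the remaining transcript lacks an exon. Epcam and Cdh1, the gate's epithelial genes, made up 0.021% to 0.026% of counts in E16 FS against 0.107% or more in every other group, and mesenchyme and muscle genes made up 1.66% to 2.07% there. Replicates of the E18 wild-type, E13-labelled and E15-labelled groups differed least (chi-square per degree of freedom of 1.53, 2.48 and 5.02, against 9.39 to 132 in the other pairs), but more than sampling noise.

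**Figure D1:**
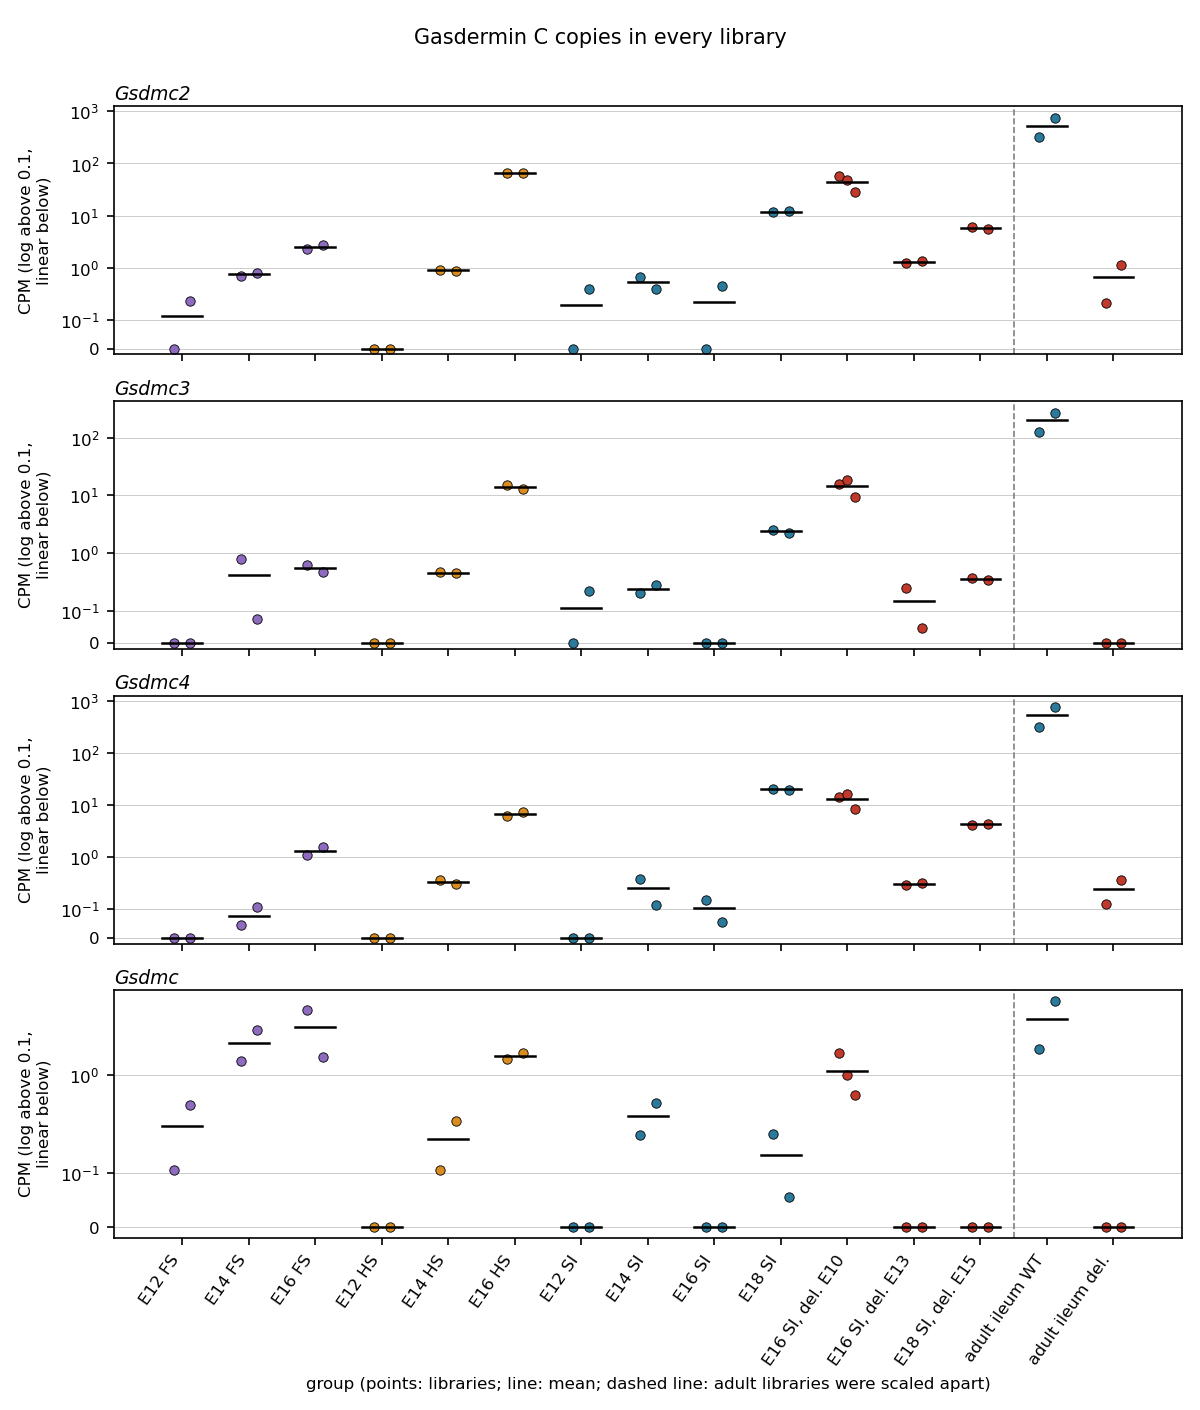
CPM of Gsdmc2, Gsdmc3, Gsdmc4 and Gsdmc (panels, from top) in the 31 libraries, by group, on an axis that is logarithmic above 0.1 and linear below. Points are libraries (purple FS, orange HS, blue SI or ileum, red labelled Cdx2-deleted) and short lines are means; Gsdmc2, Gsdmc3 and Gsdmc4 stand high in E16 HS, in the libraries labelled deleted at E10, in E18 SI and in adult wild-type ileum, and near 0 in E16 SI and the adult ileum labelled deleted.

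Gsdmc2, Gsdmc3 and Gsdmc4 were close to absent at E12 and switched on in the hindstomach by E16, while the intestine of the same age remained near 0. Gsdmc2 was counted 1463 and 1478 times in the E16 HS libraries, which is 64.9 and 64.3 CPM. In E16 SI it was counted 0 and 8 times, and in E16 FS 15 and 18 times (2.31 and 2.76 CPM). All HS libraries thus lay far above both neighbours along the gut. Gsdmc3 was counted 338 and 296 times in E16 HS, 0 and 0 times in E16 SI, and 4 and 3 times in E16 FS. Gsdmc4 was counted 140 and 167 times in E16 HS, 3 and 1 times in E16 SI, and 7 and 10 times in E16 FS. The order HS, then FS, then SI held for each of these copies at E16, without overlap of the libraries. For Gsdmc3 the place of FS above SI rests on those 4 and 3 counts, about at the 3 counts per library taken as the floor. The FS libraries held only 5970227 and 6335340 reads. Summed, the 3 genes gave 85.3 ± 1.198 CPM in HS, 4.38 ± 0.518 in FS and 0.321 ± 0.241 in SI (SD, n = 2 each), a ratio of HS to SI of 266. That ratio rests on 3 and 9 counts in SI, and the log2 fold change of Gsdmc2 ranged from 7.19 to 13.62 with 1 library left out. With Gsdmc added, the sums were 86.8 ± 1.065 CPM in HS, 7.46 ± 1.674 in FS and 0.321 ± 0.241 in SI.

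Timing differed along the gut. At E14 the sum of Gsdmc2 to Gsdmc4 was low everywhere, with 1.67 ± 0.0791 CPM in HS, 1.24 ± 0.369 in FS and 1.01 ± 0.318 in SI. From E14 to E16 it was 51.0-fold higher in HS, 3.54-fold higher in FS and 3.16-fold lower in SI, where Gsdmc2 ranged from -6.75 to -0.32 on the log2 scale with 1 library left out. With Gsdmc added, FS came first at E14, at 3.37 ± 0.708 CPM against 1.895 ± 0.0854 in HS and 1.39 ± 0.129 in SI. That sum was 45.8-fold higher at E16 in HS, 2.215-fold higher in FS and 4.34-fold lower in SI. The E16 HS libraries also held more RNA of other cells than those of E14, with mesenchyme and muscle genes at 0.669% to 0.684% of counts against 0.00492% to 0.00551%, leukocyte genes at 0.0816% to 0.103% against 0.000475% to 0.000518% and red cell genes at 0.123% to 0.174% against 7.34e-05% to 9.58e-05%. Enterocyte genes took 0.0566% to 0.0593% against 0.0101% to 0.0102%, and 7 of 9 rose. Their part in the HS value was not tested. By E18 the intestine had come up as well: the libraries held 419 and 609 summed counts (34.4 and 33.4 CPM), 106-fold above E16 SI and its 3 and 9 counts, with Gsdmc2 at a log2 fold change of 4.73 to 11.16 when 1 library was left out. All 9 enterocyte genes rose over this step (4.99% to 5.01% of counts at E18 against 1.06% to 1.11%), and their part was not tested. At E12 there were 0 summed counts in both HS libraries, 0 and 9 in FS, and 0 and 19 in SI. In each of those FS and SI pairs 1 library supplied every count. Cells were sorted up to E16 and villi were used at E18, so the step from E16 to E18 also changes the preparation, and in bulk RNA fewer expressing cells and less RNA per cell cannot be told apart.

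The libraries labelled deleted at E10 carried the gasdermin C copies at a summed level that overlapped that of E16 hindstomach, although Gsdmc2 lay below and Gsdmc4 above every E16 HS library. Gsdmc2 was counted 879, 562 and 233 times (58.7, 47.1 and 28.8 CPM), against 0 and 8 times in E16 wild-type SI. Gsdmc3 was counted 238, 222 and 75 times (15.9, 18.6 and 9.26 CPM), against 0 in both wild-type libraries. Gsdmc4 was counted 213, 196 and 68 times (14.2, 16.4 and 8.40 CPM), against 3 and 1. No library of either group crossed into the range of the other for these copies. Their sum was 72.5 ± 22.8 CPM (SD, n = 3), which is 226-fold above E16 SI (Gsdmc2 ranged from 6.66 to 13.09 on the log2 scale with 1 library left out). The first and second of these libraries (88.8 and 82.2 CPM) lay beside the E16 HS libraries (86.1 and 84.4 CPM), and the third lay at 46.4. Gastric surface genes moved the same way, at 0.247% to 0.555% of counts against 0.000485% to 0.000541% in wild type, and so did squamous genes, at 0.0435% to 0.161% against 0.000689% to 0.000792%. The summed share of enterocyte genes moved the other way, at 0.193% to 0.217% against 1.06% to 1.11%. Of these 9 genes 5 fell, but 2 rose: Krt20 (249 against 108 CPM) and Sis (47.1 against 6.98 CPM, with 0 to 963 counts per labelled library). Mesenchyme and muscle genes were also lower, at 0.00694% to 0.0108% against 0.112% to 0.123%, as were red cell genes, at 0.000101% to 0.000146% against 0.0186% to 0.0192%. The part of these marker genes in the result was not tested.

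Deletion labels later in development went with far smaller differences or with the opposite direction. In the libraries labelled deleted at E13 the sum of Gsdmc2 to Gsdmc4 was 1.74 ± 0.0581 CPM against 0.321 ± 0.241 in E16 SI, which is 5.41-fold higher and rests on 43 and 38 counts against 3 and 9. Most wild-type counts were those of Gsdmc2 in replicate 2 of E16 SI: the fitted log2 fold change of Gsdmc2 was 2.58, but 7.98 without that library and 1.55 without replicate 1. Gastric surface genes took 0.224% to 0.231% of counts with this label against 0.000485% to 0.000541% in wild type, and their part was not tested. In the libraries labelled deleted at E15 it was lower, with 202 and 265 counts (10.4 and 10.1 CPM) against 419 and 609 (34.4 and 33.4 CPM) in E18 wild type, a 3.30-fold difference. Gsdmc3 was 6.72-fold lower there, Gsdmc4 4.69-fold and Gsdmc2 2.06-fold. Enterocyte genes also took a smaller share of counts in the E15-labelled libraries, at 2.36% to 2.45% against 4.99% to 5.01% in E18 wild type. Gastric surface genes took a larger share there, at 0.00278% to 0.003% against 2.66e-05% to 3.43e-05%, and 4 of 5 rose. The part of these marker genes was not tested.

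In adult ileum the same copies were among the plentiful transcripts of wild-type villi and were nearly missing from the libraries labelled deleted. Gsdmc2 was counted 5092 and 13161 times in wild type and 5 and 16 times in the labelled knockout. Gsdmc3 was counted 2029 and 4821 times against 0 and 0. Gsdmc4 was counted 5016 and 13336 times against 3 and 5. The summed level was 759 and 1776 CPM in the wild-type libraries and 0.331 and 1.498 CPM in the others, 1385-fold lower. That fold rests on 8 and 21 counts in the labelled libraries, and Gsdmc2 ranged from -11.27 to -8.82 on the log2 scale with 1 library left out. Gsdmc3 was at least 1183-fold lower, taking 3 counts in each library of the group at 0 as the floor. Of 9 enterocyte genes, 5 also fell in these libraries and 1 rose (median log2 fold change -1.09): the disaccharidase genes Lct (2.01 against 1293 CPM) and Sis (107 against 5139) and the phosphatase gene Alpi (76.3 against 1300) fell, whereas Apoa4, an apolipoprotein gene, rose (12086 against 3622). Their summed share, 3.42% to 3.45% of counts against 3.85% to 4.37%, does not show these opposite directions, and their part was not tested. All 4 gastric surface genes tested rose, to 0.000544% to 0.0011% of counts against at most 1.23e-05% in wild type, and their part was not tested either.

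**Figure D2:**
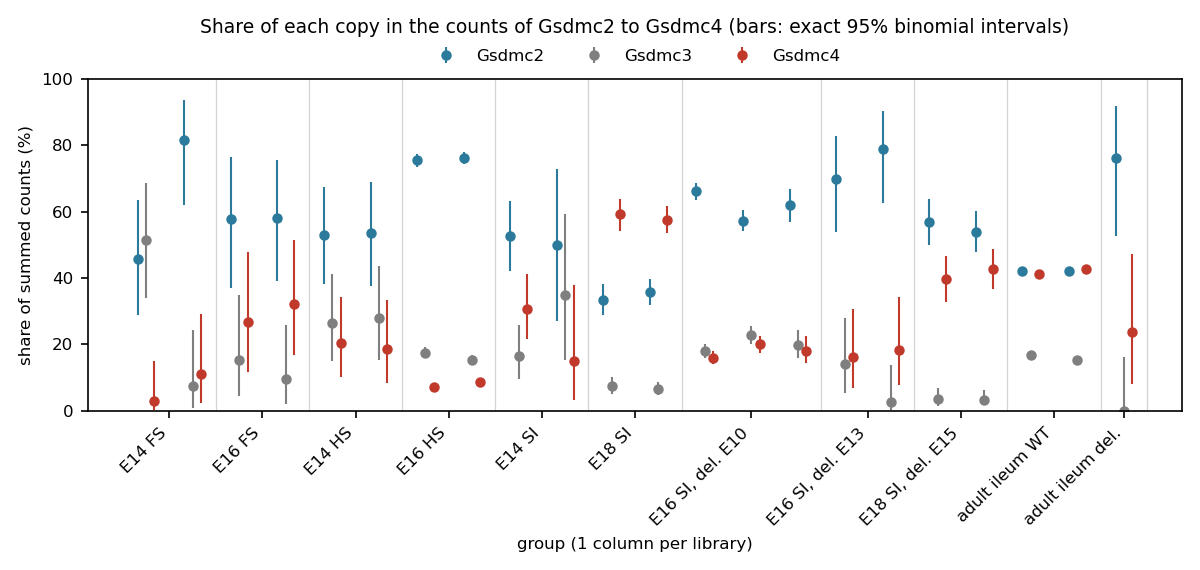
Share of Gsdmc2 (blue), Gsdmc3 (grey) and Gsdmc4 (red) in the counts of the 3 genes together, in percent, for each library with at least 20 summed counts; bars are exact 95% binomial intervals. Gsdmc4 stands at 7.2% and 8.6% in E16 HS and at 59.2% and 57.6% in E18 SI.

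The copies did not keep a fixed ratio. Gsdmc2 took 75.4% and 76.1% of the summed counts in the E16 HS libraries and Gsdmc4 7.2% and 8.6%. In E18 SI Gsdmc4 took 59.2% (exact 95% interval 54.3 to 63.9) and 57.6% (53.6 to 61.6), and Gsdmc2 33.4% and 35.8%. The libraries labelled deleted at E10 lay between these groups, with 16% to 20% for Gsdmc4. In those labelled deleted at E15 Gsdmc4 took 39.6% and 42.6%, below both E18 wild-type libraries. Adult wild-type libraries gave 41.3% and 42.6% for Gsdmc4 and 16.7% and 15.4% for Gsdmc3, the latter above the 7.4% and 6.6% of E18 SI. Intervals cover counting error only, and a share is not an abundance because the copies differ in mappable length.

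Gsdmc, the first gene of the cluster, followed another pattern and was low throughout. Its highest embryonic level was in forestomach, with 30 and 10 counts at E16 (4.63 and 1.53 CPM) and 32 and 80 at E14 (1.37 and 2.89 CPM). E16 HS followed with 33 and 38 counts (1.46 and 1.65 CPM), inside the spread of FS. It was at 0 counts in both libraries of E12 HS, E12 SI, E16 SI and the groups labelled deleted at E13 and E15. The libraries labelled deleted at E10 held 25, 12 and 5 counts, at least 6.98-fold above E16 SI. Adult wild-type ileum held 29 and 99 counts and the libraries labelled deleted held none, at least 21.96-fold lower. In E18 SI it was counted 3 and 1 times, too few for a fold.

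**Figure D3:**
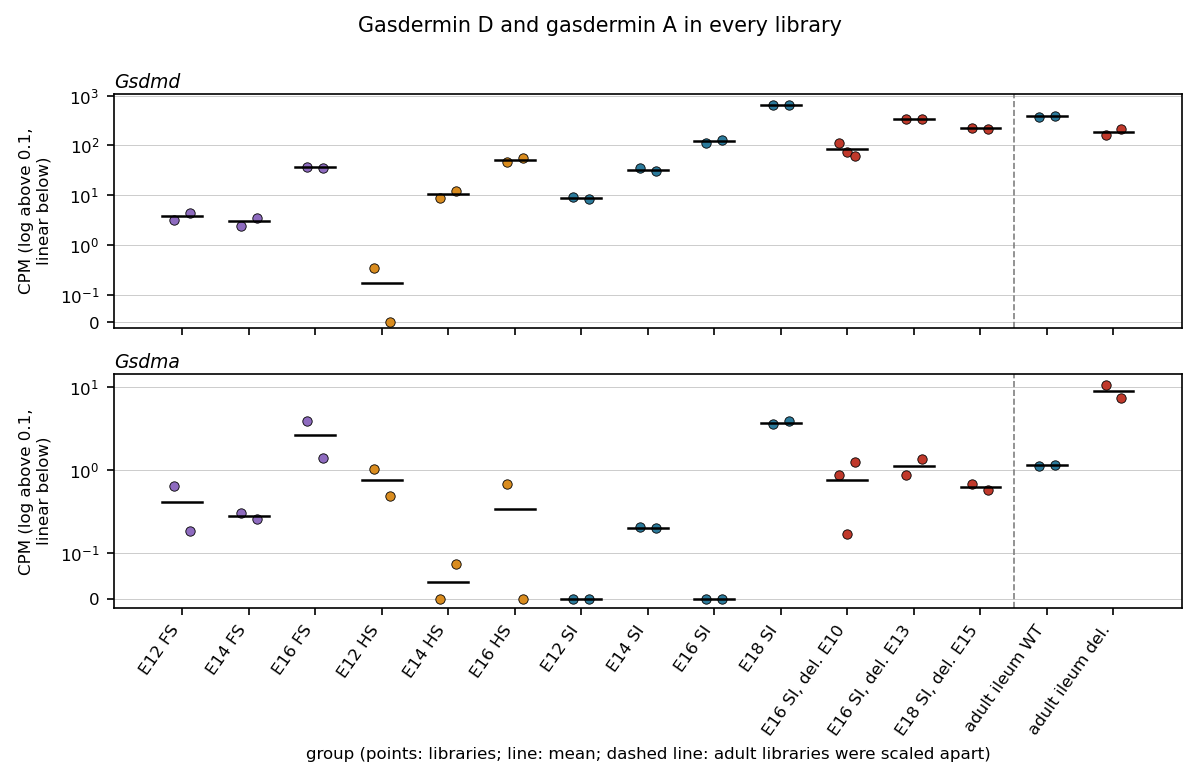
CPM of Gsdmd (top) and Gsdma (bottom) in the 31 libraries, by group, on an axis that is logarithmic above 0.1 and linear below; points are libraries (purple FS, orange HS, blue SI or ileum, red labelled Cdx2-deleted) and lines are means. Gsdmd climbs from 8.81 CPM in E12 SI to 651 in E18 SI, while Gsdma has no count in E16 SI.

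Gsdmd, the main effector of inflammasomes, was the only member that was counted in every group. In the intestine its level was higher at each stage, starting from 8.81 ± 0.557 CPM at E12 and reaching 32.4 ± 2.97 at E14, then 122 ± 12.3 in E16 SI and finally 651 ± 6.81 in E18 SI (mean ± SD of 2 libraries), and no libraries of successive stages overlapped. Hindstomach began at 11 and 0 counts at E12 and reached 253 and 314 at E14 (10.4 ± 2.04 CPM) and 1036 and 1308 at E16 (51.4 ± 7.73 CPM). Forestomach stood at 3.72 ± 0.777 CPM at E12 and 2.97 ± 0.755 at E14, which overlap, and at 35.9 ± 0.319 at E16. Marker genes moved alongside: enterocyte genes in SI took 0.0466% to 0.0483% of counts at E14, 1.06% to 1.11% at E16 and 4.99% to 5.01% at E18. In FS from E14 to E16 leukocyte genes went from at most 0.000634% to at least 0.0642%, mesenchyme and muscle genes from at most 0.00907% to at least 1.66%, and Epcam with Cdh1 from at least 0.195% to at most 0.026%. Their part in the Gsdmd values was not tested. The order SI, HS, FS at E16 was thus the reverse of that of the gasdermin C copies for SI, which was 2.37-fold above HS and 3.40-fold above FS.

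Labels of Cdx2 deletion went with different directions of Gsdmd. In the libraries labelled deleted at E10 it was counted 1707, 869 and 494 times (114, 72.9 and 61.0 CPM), against 2250 and 2392 (113 and 131 CPM) in E16 SI, and the groups overlapped. In those labelled deleted at E13 it was 340 ± 3.32 CPM, 2.79-fold above E16 SI. Enterocyte genes took 2.75% to 2.84% of counts there against 1.06% to 1.11%, much of it Alpi (21821 against 645.5 CPM). Of these 9 genes 5 rose and 1 fell, which was Lct (6.69 against 453 CPM), and Apoa1 was level (2498 against 2494 CPM). Mesenchyme and muscle genes took 0.000936% to 0.000979% against 0.112% to 0.123%, and red cell genes 0.000225% to 0.000282% against 0.0186% to 0.0192%. Leukocyte genes took 0.00519% to 0.00526% against 0.0124% to 0.0126%, and the part of these marker genes was not tested. In those labelled deleted at E15 it was 219 ± 5.17 CPM, 2.98-fold below the 651 ± 6.81 of E18 SI, with enterocyte genes at 2.36% to 2.45% of counts against 4.99% to 5.01% and leukocyte genes at 0.0011% to 0.00122% against 0.0201% to 0.0202%. In the adult it was 162 and 217 CPM in the libraries labelled deleted, against 379 and 395 CPM in wild type, 2.05-fold lower, with leukocyte genes at 0.00069% to 0.000898% against 0.00351% to 0.00663%. The part of these cells was not tested.

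Gsdma was near the floor in most groups. In E16 SI and E12 SI no read was counted, which allows up to 3 counts in each library. E18 SI held 43 and 70 counts (3.53 and 3.84 CPM) and E16 FS 25 and 9 (3.86 and 1.38 CPM), and these groups overlapped at the top of the embryonic order. In E16 HS 1 library held 15 counts and the other 0. Libraries labelled deleted at E10 held 13, 2 and 10 counts, at least 4.81-fold above E16 SI, and those labelled deleted at E13 held 21 and 30, at least 7.01-fold above. In the E15-labelled libraries it was 0.623 ± 0.0696 CPM against 3.69 ± 0.218 in E18 SI, 5.92-fold lower. Adult ileum ran against the gasdermin C copies: 254 and 104 counts (10.5 and 7.42 CPM) in the libraries labelled deleted against 18 and 20 (1.13 and 1.13 CPM) in wild type, 7.94-fold higher.

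Over the 13 embryonic group means of log2 CPM, Gsdmc2, Gsdmc3 and Gsdmc4 resembled each other (Pearson r of 0.95 for Gsdmc2 with Gsdmc3, 0.94 with Gsdmc4 and 0.87 for Gsdmc3 with Gsdmc4). Shared reads among near-identical copies would also give such values. Gsdmd had r of 0.61, 0.42 and 0.68 with these copies and -0.06 with Gsdmc, and Gsdma had r of 0.20 to 0.51 with the other members. The points share depth and preparation, so the values are descriptions. In the embryonic order of the sum of Gsdmc2 to Gsdmc4, E16 HS (85.3 CPM) and the libraries labelled deleted at E10 (72.5) came first and overlapped. E18 SI (33.9), the libraries labelled deleted at E15 (10.3) and E16 FS (4.38) followed, each apart from the next. The E13-labelled libraries (1.74) and E14 HS (1.67) overlapped, as did E14 FS with E14 SI, and E16 SI with the E12 groups next to it. For Gsdmd the order was E18 SI, E13-labelled, E15-labelled, E16 SI, E10-labelled, E16 HS, E16 FS and E14 SI. Of those neighbours, E16 SI and the E10-labelled libraries overlapped and the others did not.

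A member was counted as called where edgeR's quasi-likelihood test over all genes gave a Benjamini-Hochberg adjusted p below 0.05 and a log2 fold change of at least 1 in size. The share of all genes called is given beside each count, and nothing is read from the counts because the members were picked with these values known. Between regions at E16, 3 of 6 were called for FS against HS (all lower in FS, 20.1% of all genes called), 6 for FS against SI (5 higher in FS, 35%) and 6 for HS against SI (5 higher in HS, 25.7%). In FS 2 were called from E12 to E14 (12.7%) and 3 from E14 to E16 (37.7%), all higher at the later stage. In HS 6 were called from E12 to E14, of which Gsdma was lower (17.2%), and 4 from E14 to E16, all higher (22%). In SI 4 were called from E12 to E14, all higher (16.2%), 3 from E14 to E16, of which Gsdmc and Gsdmc3 were lower (25.6%), and 5 from E16 to E18, all higher (42.1%). For the libraries labelled deleted at E10, 5 were called, all higher (51.5%). For those labelled deleted at E13 it was 3, all higher (39.5%), and at E15 it was 3, all lower (17.5%). In the adult 6 were called, with only Gsdma higher (20.4%). The call for Gsdma in HS against SI rests on 15 counts in 1 library. Of the 2 calls in FS from E12 to E14, that for Gsdmc4 rests on 1 and 3 counts against 0 and 0, all at or under the floor of 3 counts. The other, for Gsdmc3, rests on 18 and 2 counts against 0 and 0. The counts of members called for the early steps depended on single libraries. From E12 to E14 in FS, 0 were called by edgeR without replicate 1 at E12 (2 at an unadjusted p below 0.05, and 2 by DESeq2 with all libraries) and 1 was called when any other of the 4 libraries was left out. From E12 to E14 in SI, 2 were called without replicate 1 at E12, and from E14 to E16 in SI, 1 without replicate 1 at E16. With the label at E13, Gsdmc2 was no longer called without replicate 1 of E16 SI or without either labelled library, and Gsdmc3 was newly called without labelled replicate 2. Gsdmc3 at E15 was not called when any of the 4 libraries was left out. In the adult Gsdmc lost its call without either labelled library, and Gsdmd without labelled replicate 1 or wild-type replicate 2. Fitted on their own groups alone, the E15-labelled and E18 libraries gave 5 calls of 5 members tested, all lower (29.9% of all genes called).

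**Figure D4:**
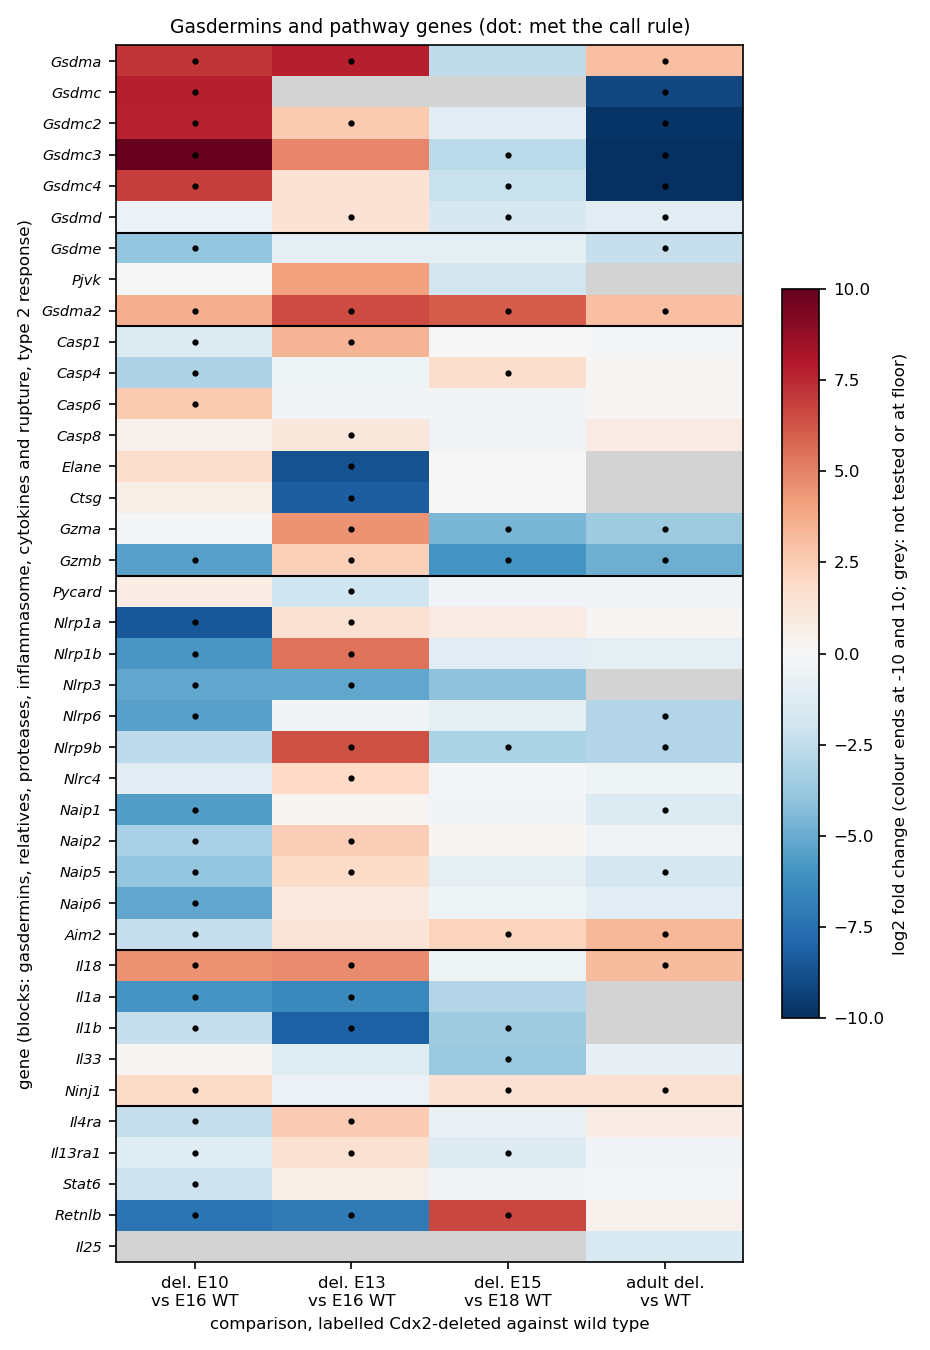
Log2 fold changes of the 6 gasdermins and of genes of their pathway in the 4 comparisons of libraries labelled Cdx2-deleted with wild type; red is higher and blue lower in the labelled libraries, dots mark calls, and grey cells were not tested or held 3 counts or fewer per library. Colours stop at 10 in either direction, and cells of genes with no count in a group depend on the fit's prior count; the gasdermin C copies are red at E10 and blue in the adult.

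Relatives of the members were taken from a list that also named proteases, inflammasome genes, cytokines and type 2 response genes, 37 genes in all, of which 34 were tested in embryos and 29 in adults. Gsdme, another pore-forming gasdermin, fell in the libraries labelled deleted at E10 (0.570 ± 0.350 CPM against 8.27 ± 2.97 in E16 SI, log2 fold change -3.85 with an SE of 0.57, adjusted p by edgeR = 7.41e-06). It also fell in the adult libraries labelled deleted (26.1 ± 2.63 against 127 ± 2.34 CPM, -2.28 ± 0.13, adjusted p = 0.00171). With the labels at E13 and E15 Gsdme did not pass (4.22 against 8.27 and 4.83 against 9.72 CPM, adjusted p = 0.153 and 0.197). Gsdma2, a neighbour and copy of Gsdma, rose in all 4 comparisons: it stood at 11.3 against 0.929 CPM with the label at E10 (log2 fold change 3.60, adjusted p = 0.000363), at 86.8 against 0.929 at E13 (6.53, 7.44e-06), at 13.4 against 0.178 at E15 (6.08, 0.000113) and at 3.16 against 0.392 in the adult (3.02, 0.0169). Reads shared between Gsdma and Gsdma2 cannot be told apart. Gsdma3 had no count in any library and was not tested.

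Of the proteases that cut gasdermins, 7 of 10 rose in SI from E14 to E16, with 25.6% of all genes called. All 9 enterocyte genes and 5 of 8 leukocyte genes rose over the same step, the latter to 0.0124% to 0.0126% of counts from 0.00286% to 0.00293%. Casp1, the caspase of canonical inflammasomes, rose from 0.805 ± 0.190 to 13.3 ± 2.75 CPM (log2 fold change 3.98 with an SE of 0.67, adjusted p by edgeR = 0.000155). From E16 to E18 it rose again to 240 ± 2.94 CPM (4.17 ± 0.61, adjusted p = 1.71e-05). From E16 to E18, with 42.1% of all genes called, 5 of the 10 rose and 1 fell, immune cell proteases among them: the granzymes Gzma and Gzmb rose by 7.01 and 6.50 on the log2 scale (adjusted p = 4.32e-09 and 7.70e-09), and Ctsg, a neutrophil protease, fell from 1.59 CPM to 0 counts (at least 7.745-fold, adjusted p = 0.0278). Of 8 leukocyte genes 2 rose from E16 to E18, Cd3e (65.9 against 0.997 CPM) and Ptprc (199 against 19.97), and 3 fell, Cd68 among them (4.10 against 11.8). Their summed share was 0.0201% to 0.0202% at E18 and 0.0124% to 0.0126% at E16, and their part in this was not tested.

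In the libraries labelled deleted at E10, 1 of the 10 proteases rose and 5 fell, with 51.5% of all genes called. Casp6, an executioner caspase, rose from 197 ± 5.04 to 1220 ± 44.5 CPM (log2 fold change 2.63 with an SE of 0.12, adjusted p by edgeR = 1.75e-12). Casp4 fell from 9.30 to 1.06 CPM (-3.12, adjusted p = 4.95e-05) and Casp1 from 13.3 to 5.03 ± 4.60 CPM (SD, n = 3; -1.34, 0.0396), with 3 to 114 counts per library. The Casp1 call was lost under DESeq2 and RLE scaling and when any of 4 of the 5 libraries was left out. Leukocyte genes took 0.00283% to 0.0507% of counts in these libraries against 0.0124% to 0.0126% in wild type. Casp8, an initiator caspase that can cut gasdermin C, was at 99.4 against 74.2 CPM (log2 fold change 0.42, adjusted p = 0.0729). Gzmb fell from 7.70 to 0.168 CPM (-5.44, adjusted p = 8.90e-07). In the libraries labelled deleted at E13, 6 rose and 2 fell (39.5% of all genes called), among them Casp1 (138 against 13.3 CPM, log2 fold change 3.37, adjusted p = 0.000120) and Casp8 (163 against 74.2 CPM, 1.14, 0.000224). Gzma also rose (4.48). The neutrophil proteases Elane and Ctsg fell to 0 counts. Elane had 84 counts in 1 wild-type library and 0 in the other, and Ctsg had 27 and 34, at least 12.35-fold more. Neither call held with DESeq2 or without either labelled library, and Elane's was also lost without the wild-type library that held its counts. The summed share of leukocyte genes was lower with this label (0.00519% to 0.00526% of counts against 0.0124% to 0.0126%), but 1 of 8 rose and 3 fell: the T cell gene Cd3e rose (12.4 against 0.997 CPM) and the macrophage gene Cd68 fell (2.91 against 11.8). In those labelled deleted at E15, 1 rose and 4 fell (17.5% of all genes called): Casp4 rose (1.79, adjusted p = 0.0203), Gzmb (-5.96) and Gzma (-4.55) were among those that fell, and Casp1 (230 against 240 CPM) and Casp8 (106 against 136 CPM) did not pass. Leukocyte genes took 0.0011% to 0.00122% of counts with the label at E15 against 0.0201% to 0.0202% in E18 wild type. In the adult, 3 of 8 tested fell (20.4% of all genes called), among them Gzmb (-4.88, adjusted p = 0.00227) and Gzma (-3.52, 0.0357). All 3 leukocyte genes tested there also fell, to a share of 0.00069% to 0.000898% against 0.00351% to 0.00663%. The part of leukocytes in these protease values was not tested. Casp1 was at 104 against 120 CPM there (adjusted p = 0.219) and Casp8 at 263 against 150 (log2 fold change 0.81, adjusted p = 0.00888, under the fold minimum).

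Inflammasome genes sense bacteria and activate Casp1. From E14 to E16 in SI, 8 of 12 tested rose, with 25.6% of all genes called. All 9 enterocyte genes rose as well (0.0466% to 0.0483% of counts at E14, 1.06% to 1.11% at E16), and their part was not tested. Pycard, the adaptor that joins sensors to Casp1, rose from 38.8 ± 4.09 to 463 ± 6.66 CPM (log2 fold change 3.58 with an SE of 0.19, adjusted p by edgeR = 1.15e-10), Naip1 from 0.834 to 28.3 CPM (5.01, 6.92e-05) and Nlrp6 from 13.8 to 284 CPM (4.37, 0.000646). Naip6 rose from 1.04 to 18.2 CPM (4.12, adjusted p = 4.66e-06). From E16 to E18, 7 rose and 1 fell, with 42.1% of all genes called: Nlrp3 fell (0.466 against 4.84 CPM, -3.39, adjusted p = 0.0236), and Pycard was at 233 against 463 CPM (-0.99, 8.78e-05, just under the fold minimum). In E16 HS, where the gasdermin C copies were high, 6 of 12 were lower than in SI (25.7% of all genes called), Pycard among them at 71.9 against 463 CPM (-2.69, adjusted p by edgeR = 3.00e-09). In HS 8 of 9 enterocyte genes were also lower, while 5 of 6 mesenchyme and muscle genes and 5 of 5 gastric surface genes were higher. Epcam with Cdh1 took 0.107% to 0.114% of counts there against 0.218% to 0.224%. Over the step from E16 to E18 in SI all 9 enterocyte genes rose and all 6 mesenchyme and muscle genes fell. The part of these cells was not tested. In the libraries labelled deleted at E10, 9 of 12 fell, with 51.5% of all genes called: Nlrp1a had 0 counts against 1.80 CPM (at least 6.58-fold lower, adjusted p = 1.13e-07) and Naip1 0.684 against 28.3 CPM (-5.57, 3.62e-06). Nlrp1b passed too, but its 2 and 9 counts in wild type lie about at the floor of 3 counts per library. Pycard was at 771 against 463 CPM there (log2 fold change 0.74, adjusted p = 0.000602, under the fold minimum). Enterocyte genes took 0.193% to 0.217% of counts there against 1.06% to 1.11% (5 of 9 fell and 2 rose), and their part was not tested.

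With the label of deletion at E13, 6 of the 12 inflammasome genes rose and 2 fell, with 39.5% of all genes called. Nlrp1b rose (282 and 313 counts against 2 and 9, the latter about at the floor, adjusted p by edgeR = 4.79e-05), and so did Nlrp9b (38 and 81 counts against 0 and 1, too few for a fold, adjusted p = 5.52e-05). Nlrp3 fell (3 and 3 counts, at the floor, against 62 and 125, adjusted p = 0.00323), and so did Pycard (115 against 463 CPM, log2 fold change -2.01, adjusted p = 2.33e-08). With the label at E15, 1 of 12 rose and 1 fell (17.5% of all genes called): Aim2, a DNA sensor, rose (45.3 against 9.76 CPM, 2.22, 0.0201), Nlrp9b fell (12.7 against 114 CPM, -3.16, 0.000365) and Pycard did not pass (193 against 233 CPM, adjusted p = 0.281). In the adult 1 rose and 4 fell of 11 tested (20.4% of all genes called). Aim2 rose (61.2 against 6.03 CPM, 3.33, 0.0238), while Nlrp6 (41.6 against 325 CPM, -2.96, 0.00194) and Nlrp9b (10.8 against 82.1 CPM, -2.92, 0.000906) fell. Pycard was at 85.8 against 111 CPM (adjusted p by edgeR = 0.0848). Of 9 enterocyte genes 5 rose and 1 fell at E13, 0 rose and 6 fell at E15, and 1 rose and 5 fell in the adult. All 6 mesenchyme and muscle genes fell at E13. Of 8 leukocyte genes 1 rose and 3 fell at E13 and 3 fell at E15, as did the 3 tested in the adult. The part of these cells was not tested.

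Il18, a cytokine that Casp1 matures and gasdermin pores release, rose with intestinal age from E14 on and in 3 of the 4 comparisons with Cdx2 labels. In SI it went from 1.34 ± 0.222 CPM at E14 to 11.8 ± 1.84 at E16 (log2 fold change 3.09 with an SE of 0.55, adjusted p by edgeR = 0.000171) and 253 ± 0.178 at E18 (4.42 ± 0.52, 6.94e-07). It rose to 259 ± 79.6 CPM in the libraries labelled deleted at E10 (4.46 ± 0.51, adjusted p = 2.47e-07) and to 308 ± 0.477 in those labelled deleted at E13 (4.71 ± 0.53, 3.90e-07), both against 11.8 in E16 SI. In the adult it rose from 25.3 ± 16.6 to 223 ± 119 CPM (3.14 ± 0.64, 0.0231), and with the label at E15 it did not pass (188 against 253 CPM, adjusted p = 0.538). Of the 5 genes of this list, 2 rose and 2 fell at E10 (Il1a at 0 to 3 counts against 138 and 170, and Il1b by -2.34). At E13 1 rose and 2 fell (Il1b at 1 and 3 counts against 485 and 524, and Il1a at 1 and 3 against 138 and 170), and at E15 1 rose and 2 fell. The shares of all genes called were 51.5%, 39.5% and 17.5%. With each of these labels 3 of 8 leukocyte genes also fell, while 1 rose at E10 and 1 at E13. Their share at E10 was 0.00283% to 0.0507% of counts against 0.0124% to 0.0126%, and at E15 it was 0.0011% to 0.00122% against 0.0201% to 0.0202%. Mesenchyme and muscle genes fell too, 5 of 6 at E10 and 6 of 6 at E13, and the part of these cells was not tested. Il33, an alarm cytokine, fell at E15 (6.98 against 92.4 CPM, -3.72, 0.00292), and so did Il1b (-3.55, 0.0133). Ninj1, which ruptures the membrane after pores form, rose with the labels at E10 (202 against 52.7 CPM, 1.94, 3.61e-09, a gene named after its value was seen), at E15 (35.9 against 13.1 CPM, 1.45, 4.34e-06) and in the adult (23.1 against 8.12 CPM, 1.5, 0.0112).

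Genes of the type 2 cytokine response, the route known to raise gasdermin C, were called in both directions. All 4 tested fell in the libraries labelled deleted at E10, where the copies were high: the receptor chain Il4ra (5.83 against 30.7 CPM, log2 fold change -2.41, adjusted p by edgeR = 0.000224), Stat6 (30.2 against 135 CPM, -2.16, 1.58e-10) and Retnlb, a goblet cell product induced by Il13 (0.760 against 128 CPM, -7.31, 3.05e-06) had the largest changes. At E13, Il4ra (2.56) and Il13ra1 (1.51) rose and Retnlb (-7.07) fell. At E15, Retnlb rose (190 and 285 counts against 1 and 2, too few for a fold, adjusted p by edgeR = 0.000716) and Il13ra1 fell (-1.28, 0.000159). Of 9 enterocyte genes 2 rose and 5 fell at E10, 5 rose and 1 fell at E13, and 0 rose and 6 fell at E15. Mesenchyme and muscle genes fell as well, 5 of 6 at E10 and 6 of 6 at E13. Of 8 leukocyte genes 3 fell with each label, while 1 rose at E10 and 1 at E13. The part of these cells was not tested. In the adult 0 of 5 passed the call rule with edgeR and 0 with DESeq2, and 1 had an unadjusted p below 0.05, which was Il4ra (log2 fold change 0.74, adjusted p by edgeR = 0.0289, under the fold minimum). Over the whole pathway list, 25 of 34 tested genes were called at E10 (4 rose, 21 fell, median log2 fold change -2.24 against -0.10 over all genes), 23 at E13 (16 rose, 7 fell, median 1.19 against -0.05), 13 at E15 (5 rose, 8 fell, median -0.43 against 0.00) and 12 of 29 in the adult (4 rose, 8 fell, median -0.34 against 0.01). With genes absent from a group set at their lower bound, those medians were -1.77, 1.04, -0.40 and -0.34. The corresponding shares of all genes called were 51.5%, 39.5%, 17.5% and 20.4%.

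The genes most like the members over the 13 embryonic groups were named by Pearson r of mean log2 CPM. For the sum of Gsdmc2 to Gsdmc4 they were Plekhs1 (0.895), Gm19557 (0.880) and 1700018L02Rik (0.874), all low: Plekhs1 stood at 3.58 CPM in E16 HS, at 1.61 with the label of deletion at E10 and at 0 in E16 SI. For Gsdmd they were Naprt1 (0.945), Tmem106a (0.942) and Apol7a (0.941). Naprt1, an enzyme of NAD synthesis that lies beyond Mroh6 on the same side of Gsdmd, went from 5.90 CPM in E12 SI to 56.4 at E16 and 424 at E18. In the adult Naprt1 was at 63.5 CPM in the libraries labelled deleted and 238 in wild type. For Gsdma they were Ppox (0.878), Armc7 (0.861) and Becn1 (0.855).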

How the data were processed

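RNA-seq was read from 1 deposited table of raw counts per gene, whole numbers that the authors made from 75-base single-end reads (SMARTer kit for embryos, TruSeq for adults, per the labels' protocols). The submitters' processing notes name Bowtie2, STAR 2.5.3a, MACS2, HTSeq and the build mm9 with no roles, and how strand and reads with several hits were treated is not given in the sources used here. The 4 adult columns each hold 2 blank cells, after which values sit on the wrong rows. They were closed up, which raised their lowest rank correlation with E18 SI from 0.280 to 0.929 between the blanks, and all 6 members lie above the first blank. In total 2 columns matched no sample and were not used.

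Counts were fitted with edgeR 4.0.16 (R 4.3.3; TMM scaling, filterByExpr with a minimum count of 10, quasi-likelihood test), with 27 embryonic libraries in 1 fit of 17239 genes and 4 adult libraries in another of 12444. A call needed a Benjamini-Hochberg adjusted p below 0.05 over all genes of the fit and an absolute log2 fold change of at least 1. On simulated counts with 200 changed genes the fit recovered 200 with 2 false calls among 16233 genes for E15-labelled against E18 libraries, and 200 with 2 false calls among 12339 for the adult. Those counts were drawn with the same small spread for every gene, and only well-counted genes were changed, by large folds. The simulation does not cover members with few counts or replicates that differed more, so its recovery does not carry over to their calls. Folds of members are ratios of mean CPM, taken as at least the ratio to 3 counts per library where a group had none. Totals of 5970227 to 62463167 reads set the precision.

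Members and lists were chosen with earlier results of these data known. Named were all members, Cdx2, from each list at most the 3 called genes of largest log2 fold change per comparison plus Casp1, Casp8, Pycard, Il18 and Gsdme, and the 3 genes most like each pattern. Some list genes are counted but not reported by name here. Alternatives were RLE scaling, no filter, DESeq2 1.42.0, fits of fewer or more libraries, a replicate block, no fold minimum, summed copies, and each library left out in turn.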

Additional observations from a re-analysis of the deposited data

Results flagged for a closer look

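The 6 gasdermins differed in direction between the 4 comparisons of libraries labelled Cdx2-deleted with wild type: for each gene listed here, every labelled library lay above every wild-type library in at least 1 comparison and below in at least 1 other. The differences between comparisons were not tested. Values are fitted log2 fold changes, labelled over wild type. The value of Gsdmc2 was 7.69 with the label at E10 and 2.58 at E13, but at -1.04 at E15 and -9.82 in the adult. Gsdmc4 followed the same course with 6.90 and 1.48, then -2.23 and -11.25. Gsdmc3 was at 11.47, then 4.89, -2.73 and -14.81, of which the values at E10, at E13 and in the adult are set against libraries without a count and depend on the fit's prior count. Its value at E13 rests on 6 and 1 counts, not above what the floor of 3 counts per library allows. For Gsdmc the values were 7.76 with the label at E10 and -9.07 in the adult, both also against libraries without a count. Its groups did not overlap at E15 either, but there they held 0 and 0 against 3 and 1 counts, all at or under the floor. Gsdmd stood at 1.48 with the label at E13, -1.57 at E15 and -1.03 in the adult. Gsdma was the member whose adult direction differed from that of the others, at 2.99, with -2.56 at E15 and with 7.18 at E10 and 7.74 at E13 against libraries without a count.

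The comparisons differ in Cre driver, tamoxifen, stage, cell preparation and strain of the wild type, and only the label at E10 went with a lower count of Cdx2. Tamoxifen was given with the labels at E13, at E15 and in the adult, and not with that at E10 or to the wild type. What each of these contributes cannot be told apart.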

How the results depend on the processing

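The number of gasdermins called stayed within 1.5 times of the reported count under RLE scaling, no filter on low counts, DESeq2, no fold minimum and, in the adult, all 31 libraries in 1 fit. Fits of only the groups compared gave 1 of 3 tested for FS E14 against E12, 1 of 1 for SI E16 against E14 and 5 of 5 for the label at E15. For SI E14 against E12 they gave 0 of 2 tested by edgeR (1 at an unadjusted p below 0.05, 4 by DESeq2 on all groups), with 1.5% of all genes called. Fewer members passed the filter in those fits, and the cause was not tested further. With 1 library left out, the count ranged from 0 to 1 for FS E14 against E12, from 2 to 5 for SI E14 against E12 and from 1 to 2 for SI E16 against E14. In the other 11 comparisons no library moved it by more than 1.5 times. The count of pathway genes called with the 4 deletion labels stayed within 1.5 times throughout, at 24 to 25, 19 to 21, 10 to 11 and 8 to 11 with 1 library left out. Where a group was left with 1 library, that library was assumed to vary like the other groups.

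The replicate numbers share only a number: the correlation of same-numbered deviations lay between -0.02 and 0.02 over 13 embryonic comparisons. With a replicate block, 5 gasdermins were called for the label at E10, 3 at E13, 3 at E15 and 6 in the adult, as without it, and 24, 21, 13 and 12 pathway genes. Leaving out the libraries labelled deleted at E13, an alternative chosen after seeing the data, moved no count of gasdermins by more than 1.5 times, and of 5 pathway genes called in FS from E12 to E14 it left 3.

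Of 342 fold changes of members with 1 library left out, 97 moved by more than the replicate spread, as did 71 of 468 under the other alternatives. Gsdmc2 ranged from 6.66 to 13.09 (reported 7.69) for the label at E10 and from 1.55 to 7.98 (reported 2.58) at E13. Of the 342, 5 had another sign than reported, none of them of a called member, and of the 468 it was 0. The largest such swing was that of Gsdma in HS from E14 to E16, 3.01 with both libraries and -3.03 without replicate 1 at E16. RLE scaling shifted the median over all genes tested from 0.00 to 0.26 on the log2 scale for FS E16 against E14 and from 0.00 to 0.19 for FS against SI, so low folds in FS are relative to that choice. Few counts limit Gsdma, Gsdmc and the copies before E16, and unequal mapping among the copies limits their shares.

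By Spearman rho, Plekhs1 ranked 2 among the genes most like the sum of Gsdmc2 to Gsdmc4 (0.905), Naprt1 ranked 1 for Gsdmd (0.989) and Ppox 1 for Gsdma, whereas Gm19557 ranked 22 and Apol7a 133. Over the 10 wild-type groups alone other genes ranked first for the sum, for Gsdmd and for Gsdma (Amh, Dnm1 and Gm15401). There Plekhs1 ranked 2, Gm19557 38, Naprt1 6, Tmem106a 11, Apol7a 15, Ppox 14 and Armc7 13.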
